A study of Homo sapiens with 8 samples.

Results

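Semaphorins, plexins and neuropilins were described here in SK-Hep1 cells, a human liver adenocarcinoma line with endothelial features. Members were all genes of the count table whose symbols name a class 3 to class 7 semaphorin, a plexin or a neuropilin. The table held 31 of them among 28278 named genes: 20 semaphorins, 9 plexins and 2 neuropilins. Poly(A) RNA was sequenced from 4 groups of 2 libraries each. SR siCOL6A3 + rhETP were sorafenib-resistant cells given an siRNA against COL6A3 and recombinant human endotrophin. SR siCOL6A3 were resistant cells given the siRNA alone, SR siCtrl were resistant cells given a control siRNA, and SS siCtrl were sorafenib-sensitive cells given the control siRNA. Sorafenib is a kinase inhibitor used in liver cancer, COL6A3 encodes a chain of collagen VI, and endotrophin is the fragment cut from the C-terminal end of that chain. All groups had thus been transfected, and 3 of the 4 were resistant. The labels name 1 resistant and 1 sensitive population of a single line, so resistance and any other difference between those populations cannot be told apart. The sources used here do not give the siRNA sequences, the endotrophin dose, how resistance was obtained or whether sorafenib was present at harvest. By the labels, libraries of a group are biological replicates from 1 batch, but separate cultures are not named, so p-values measure the spread between these libraries, which may be technical.

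Semaphorins are secreted or membrane-bound proteins that steer the movement, adhesion and process outgrowth of cells, first known from growing axons and later from blood vessels and tumours. Plexins are their main signalling receptors, with a cytoplasmic domain that acts on small Ras-family GTPases. Most class 3 semaphorins bind neuropilins, which have short cytoplasmic tails and pair with A-type plexins or plexin D1; neuropilins also bind vascular endothelial growth factors (VEGFs). SEMA3E can bind plexin D1 without a neuropilin, and SEMA7A binds plexin C1 and beta1 integrins.

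Library totals were 30461668 to 44116043 counts, and 15301 to 16594 genes were detected per library. COL6A3 (gene identifier 1293, GRCh38 chromosome 2, 237324018 to 237414164) had 65.95 and 71.35 CPM (counts scaled to library size) in SR siCOL6A3 + rhETP, 42.68 and 44.95 CPM in SR siCOL6A3, 135.0 and 136.2 CPM in SR siCtrl and 17.75 and 19.72 CPM in SS siCtrl. The siRNA libraries thus held less of its target than the resistant controls, as their labels say. Between the siRNA groups COL6A3 was 0.65 (SE 0.11) higher in SR siCOL6A3 + rhETP than in SR siCOL6A3 (edgeR quasi-likelihood, Benjamini-Hochberg adjusted p = 0.000739), though not by limma on FPKM (adjusted p = 0.0639 and 0.0651). The added endotrophin and a weaker silencing of COL6A3 therefore cannot be told apart in any comparison of these groups. Of the defining hepatocyte markers, ALB, APOA1 and TTR were at 0 in all 8 libraries, whereas SERPINA1 of the same 11 genes lay at 2.24 to 6.97 FPKM (a level corrected for gene length as well as library size). Of 11 endothelial markers, CLDN5 and EMCN were at 0 throughout and PECAM1, CDH5 and KDR were at 0 in at least 6 of the 8 libraries each, while ENG lay at 16.94 to 30.97 FPKM. Of 9 mesenchymal markers, VIM stood at 1607 to 1944 FPKM, and 5 had at least 1 FPKM in both libraries of every group. COL1A2, DCN, PDGFRB and LUM reached at most 0.58, 0.06, 0.94 and 1.03 FPKM. In such bulk RNA, fewer cells that make an mRNA and less of it per cell cannot be told apart.

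The family was represented by a few abundant genes and many scarce ones. By FPKM averaged over the 4 groups, the most abundant was NRP1 at 84.2, exceeded by 4.69% of the genes tested. It was followed by PLXNB2 at 30.1, SEMA3C at 25.8, SEMA7A at 23.5, SEMA6B at 13.95, PLXNA1 at 12.8 and SEMA3D at 8.13 FPKM. SEMA4C, SEMA4B, SEMA5A, SEMA4F, NRP2 and SEMA3A lay between 4.68 and 2.06 FPKM, and PLXNB3, PLXNA3, SEMA4G and PLXND1 between 1.47 and 1.14 FPKM. The other 14 members were below 1 FPKM on this average. After a filter on low counts 28 members were kept among 15684 genes tested. The 3 left out were SEMA4A, SEMA5B and PLXNA4, which had no more than 28, 8 and 17 counts in any library; a count of 0 there still allows up to 3 counts, for counting error alone.

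**Figure D1:**
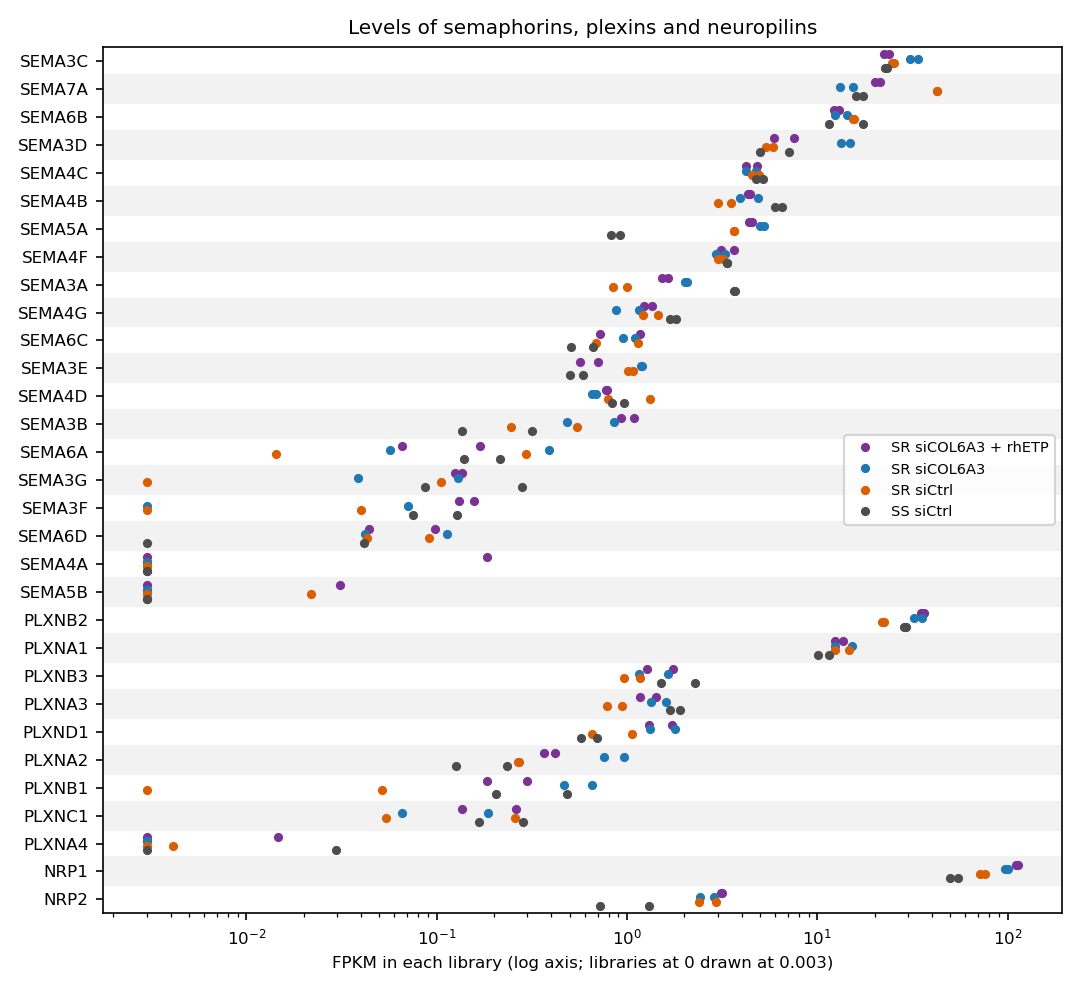
Level in FPKM (log axis) of each of the 31 members in each of the 8 libraries, semaphorins above, then plexins, then neuropilins, ordered by mean level within each family. NRP1 was the most abundant member in every group, and the points of 1 group sit apart from the others for SEMA7A in SR siCtrl and for SEMA5A in SS siCtrl.

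Genes are said here to have risen, fallen or been called where edgeR's quasi-likelihood test gave a Benjamini-Hochberg adjusted p below 0.05 over all 15684 genes tested. In SR siCtrl against SS siCtrl 10 of the 28 members tested were called, against a background of 15.8% of all genes. Of these 4 were higher in SR siCtrl (SEMA5A, NRP2, SEMA7A and NRP1; background 6.52%) and 6 were lower (PLXNB1, SEMA3A, PLXNA3, SEMA4B, PLXNB3 and PLXNB2; background 9.30%). The median log2 fold change of the members was -0.02, beside 0.01 for all genes tested. Of the 8 plexins tested 4 fell, while both neuropilins rose. Of 9 mesenchymal markers 3 rose, with a summed FPKM of 2227 and 2202 in SR siCtrl against 1722 and 1719 in SS siCtrl. Most of that sum was VIM, at 1888 and 1846 against 1616 and 1607 FPKM. FN1 was at 307.5 and 325.2 against 75.57 and 81.24 FPKM. The part of these markers in the result was not tested.

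In SR siCOL6A3 against SR siCtrl 11 members were called, beside 22.3% of all genes. In this comparison 10 rose (PLXNB1, PLXNA2, SEMA3D, SEMA3A, PLXND1, PLXNA3, PLXNB2, SEMA5A, NRP1 and SEMA3C; background 11.4%) and 1 fell, SEMA7A (background 10.9%). The median of the 28 members tested was 0.39, beside 0.00 for all genes, and 5 of the 8 plexins tested were among those that rose. For 28 tested genes of other guidance families (ephrins, Eph receptors, SLITs, ROBOs, netrins and netrin receptors) the median was 0.54. Of these 28, 3 rose and 3 fell (21.4%, beside 22.3% of all genes). UNC5C, EPHA5 and SLIT1 were at 0 in SR siCtrl and EFNB3 was at 0 in SR siCOL6A3, none of them called. The part of such scarce genes in that median was not tested. An upward median was thus also seen outside the members, though the calls there went equally up and down. Of 9 mesenchymal markers 5 rose with the siRNA, and the summed FPKM of the list was 2614 and 2656 in SR siCOL6A3 against 2227 and 2202 in SR siCtrl. Most of that sum was VIM, at 1922 and 1908 against 1888 and 1846 FPKM. Most of the difference was FN1, at 628.6 and 685.4 against 307.5 and 325.2 FPKM. Of the 4 endothelial markers tested 2 fell, and the summed FPKM of that list, most of it ENG, was 17.85 and 20.21 in SR siCOL6A3 against 29.77 and 30.7 in SR siCtrl. The part of either list in the result was not tested.

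In SR siCOL6A3 + rhETP against SR siCOL6A3 3 members were called, beside 7.77% of all genes, in groups that also differed in COL6A3. SEMA7A rose (background 4.41%) and SEMA3D and SEMA3C fell (background 3.36%); the median of the members was 0.02, beside 0.00 for all genes. In SR siCOL6A3 + rhETP against SR siCtrl 6 were called, beside 19.0% of all genes: PLXNB1, SEMA3A, PLXNB2, NRP1 and PLXNA3 rose (background 10.1%), SEMA7A fell (background 8.93%), and the median was 0.30, beside 0.00. The 4 comparisons share groups, so their results are not independent of each other. SEMA7A was called in all 4 comparisons, 5 members in 3, 3 members in 2, 5 members in 1, and 14 members in none. The 2 groups compared did not overlap for 53% of all genes tested in SR siCtrl against SS siCtrl, 58.3% in SR siCOL6A3 against SR siCtrl, 52% in SR siCOL6A3 + rhETP against SR siCOL6A3 and 57.3% in SR siCOL6A3 + rhETP against SR siCtrl, so such a separation alone says little about 1 gene.

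**Figure D2:**
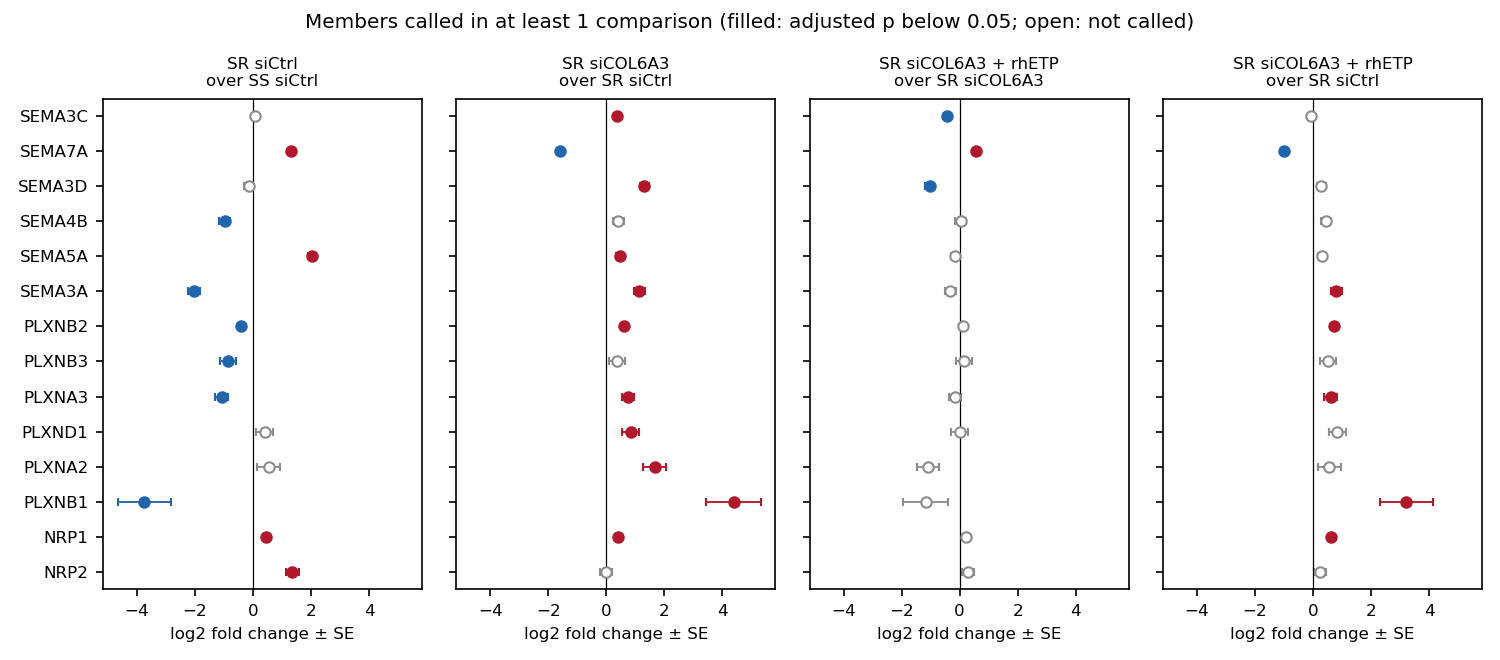
Log2 fold change with its standard error (SE) for the 14 members called in at least 1 comparison, 1 panel for each comparison; filled red points were higher and filled blue points lower in the group named first, open points were not called. SEMA7A is filled in every panel, in opposite directions in the first and second panels, and PLXNB1 has the widest bars.

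SEMA7A, a membrane semaphorin held by a GPI anchor and known from immune and stromal cells, was the semaphorin with the highest FPKM in the resistant controls. It had 75.5 and 71.1 CPM in SR siCOL6A3 + rhETP, 45.1 and 52.9 CPM in SR siCOL6A3, 146.0 and 148.2 CPM in SR siCtrl and 56.9 and 62.0 CPM in SS siCtrl. The 2 libraries of SR siCtrl stood above all others, those of SR siCOL6A3 below all others, and no 2 groups overlapped. The level in SR siCtrl was 1.31 (SE 0.11) above SS siCtrl on the log2 scale (edgeR quasi-likelihood, Benjamini-Hochberg adjusted p = 1.17e-08). It was lower in SR siCOL6A3 than in SR siCtrl, at -1.59 (SE 0.11; adjusted p = 1.98e-09 in the same edgeR test). With endotrophin it was 0.58 (SE 0.11) higher than with the siRNA alone, with adjusted p = 0.0017 in edgeR's test, and it was 2.01-fold lower than in SR siCtrl (edgeR adjusted p = 6.82e-07). All 4 calls held under all 13 alternative settings tried.

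The promoter of SEMA7A is shown because the gene was called in every comparison, together with that of SEMA5A, which had the largest rise among the members in SR siCtrl against SS siCtrl, and those of SEMA3D and SEMA3C, the members that fell with endotrophin. The sequences are RefSeq's for GRCh38.p14, from 250 bases before to 50 bases after the transcript start in its promoter table, read 5′ to 3′ on the minus strand, on which all 4 genes lie. For SEMA7A, SEMA5A and SEMA3C this is the annotated start of the gene, while for SEMA3D it lies at 85187056, 63.2 kb inside the annotated gene. Over the members the 2 starts were the same in 17 windows and differed in 10. They are at chr15:74433909-74434208 (SEMA7A), chr5:9546026-9546325 (SEMA5A), chr7:85187007-85187306 (SEMA3D) and chr7:80922340-80922639 (SEMA3C). Capitals mark the GC box, the letters GGGCGG on either strand, to which Sp1 family factors are known to bind.
SEMA7A: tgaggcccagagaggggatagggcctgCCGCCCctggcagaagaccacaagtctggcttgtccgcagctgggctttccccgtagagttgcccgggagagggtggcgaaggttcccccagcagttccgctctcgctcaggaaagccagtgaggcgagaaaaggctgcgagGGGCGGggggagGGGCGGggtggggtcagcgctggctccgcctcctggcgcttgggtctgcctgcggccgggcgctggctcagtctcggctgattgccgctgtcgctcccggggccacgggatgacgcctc
SEMA5A: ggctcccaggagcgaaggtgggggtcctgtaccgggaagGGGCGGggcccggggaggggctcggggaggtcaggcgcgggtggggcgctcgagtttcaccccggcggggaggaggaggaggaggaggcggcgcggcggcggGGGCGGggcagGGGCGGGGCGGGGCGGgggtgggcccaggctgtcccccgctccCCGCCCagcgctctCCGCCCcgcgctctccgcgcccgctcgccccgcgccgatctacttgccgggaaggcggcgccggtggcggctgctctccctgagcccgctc
SEMA3D: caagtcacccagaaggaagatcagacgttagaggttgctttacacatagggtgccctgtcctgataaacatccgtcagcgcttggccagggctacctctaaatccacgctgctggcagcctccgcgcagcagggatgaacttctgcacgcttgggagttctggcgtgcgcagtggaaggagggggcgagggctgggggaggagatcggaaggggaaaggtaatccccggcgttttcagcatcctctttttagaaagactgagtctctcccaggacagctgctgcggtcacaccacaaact
SEMA3C: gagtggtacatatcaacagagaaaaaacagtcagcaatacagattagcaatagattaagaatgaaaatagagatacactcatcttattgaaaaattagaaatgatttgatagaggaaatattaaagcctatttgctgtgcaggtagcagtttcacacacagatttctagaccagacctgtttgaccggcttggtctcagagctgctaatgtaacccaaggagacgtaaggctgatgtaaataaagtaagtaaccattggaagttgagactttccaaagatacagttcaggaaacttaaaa
The SEMA7A window held 3 GC boxes and was 70% G or C. The SEMA5A window held 7, some of which overlap by 1 base within one run, and was 81% G or C. The windows of SEMA3D and SEMA3C held none, at 57% and 36% G or C. A window was found for 27 of the 31 members; NRP1, SEMA3A, SEMA6A and SEMA6B had none. Of these 27, 19 held a GC box, against 44.6% of 27305 promoters of this length. All 19 were among the 24 members with a window that were kept for testing, against 67.6% of promoters of genes kept for testing. The AP-1 motif TGANTCA was in 1 of the 27 (7.76% of all promoters, 4.84% of those of genes kept for testing), the E-box CACGTG in 3 (7.43% and 9.77%) and the TATA box TATAAA in 0 (12% and 6.23%), each searched on both strands. All matches to these motifs were in windows of the 24 members kept for testing. The matches describe letters in the window and no binding was measured.

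SEMA3D and SEMA3A, both secreted class 3 semaphorins, gave the largest rises with the COL6A3 siRNA among the ligands called. Of 7 class 3 members tested, 3 rose with the siRNA and 4 were not called. SEMA3D, a class 3 ligand known from heart and vessel development, had 47.6 and 37.5 CPM in SR siCOL6A3 + rhETP, 91.0 and 82.2 CPM in SR siCOL6A3, 36.2 and 33.5 CPM in SR siCtrl and 31.9 and 45.2 CPM in SS siCtrl. The SR siCOL6A3 libraries stood above all others, and SR siCtrl and SS siCtrl overlapped. SEMA3D was 1.31 (SE 0.16) higher with the siRNA than in SR siCtrl (edgeR, Benjamini-Hochberg adjusted p = 2.07e-06). With endotrophin it was lower than with the siRNA alone, at -1.02 (SE 0.15; edgeR adjusted p = 0.00016), and its 0.29 (SE 0.15) relative to SR siCtrl was not called (edgeR adjusted p = 0.22). Both calls held under all 13 alternative settings.

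SEMA3C, a class 3 ligand that signals through neuropilins with plexin D1 or A-type plexins, was more abundant and changed less. It had 130.0 and 121.3 CPM in SR siCOL6A3 + rhETP, 178.5 and 163.7 CPM in SR siCOL6A3, 134.3 and 132.0 CPM in SR siCtrl and 124.0 and 127.7 CPM in SS siCtrl. The siRNA libraries again stood above all others. The rise with the siRNA was 0.36 (SE 0.09; edgeR, Benjamini-Hochberg adjusted p = 0.0059), and the fold change with endotrophin against the siRNA alone was -0.44 (SE 0.09; edgeR adjusted p = 0.00327). Without SR siCOL6A3 replicate 1 the rise was 0.31 and was not called (edgeR adjusted p = 0.0683), and without SR siCOL6A3 + rhETP replicate 2 the fall was -0.39 and was not called (edgeR adjusted p = 0.0578).

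SEMA3A, which collapses growth cones and binds NRP1, was lowest in the resistant controls. It had 13.4 and 12.5 CPM in SR siCOL6A3 + rhETP, 16.0 and 16.5 CPM in SR siCOL6A3, 8.03 and 6.79 CPM in SR siCtrl and 30.2 and 30.6 CPM in SS siCtrl, and no 2 groups overlapped. SR siCtrl lay at -2.04 (SE 0.20) relative to SS siCtrl (edgeR, Benjamini-Hochberg adjusted p = 8.93e-08). The siRNA libraries were 1.14 (SE 0.19) above SR siCtrl (edgeR adjusted p = 0.000163), and those with endotrophin were 0.81 (SE 0.19) above SR siCtrl (edgeR adjusted p = 0.00445); the difference of -0.33 (SE 0.19) between SR siCOL6A3 + rhETP and SR siCOL6A3 was not called. Limma on log2(FPKM + 1) did not call the difference between SR siCOL6A3 + rhETP and SR siCtrl (0.43, adjusted p = 0.0719).

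SEMA3E, the ligand of plexin D1, had 5.21 and 4.19 CPM in SR siCOL6A3 + rhETP, 8.57 and 8.69 CPM in SR siCOL6A3, 7.84 and 7.46 CPM in SR siCtrl and 3.78 and 4.404 CPM in SS siCtrl. Its fold change of 0.90 in SR siCtrl against SS siCtrl missed the threshold (edgeR adjusted p = 0.0541) and passed it in DESeq2 (adjusted p = 0.047). SEMA3B, SEMA3F and SEMA3G did not exceed 147, 23 and 44 counts in any library and were called in no comparison. SEMA3C, SEMA3E, SEMA3A and SEMA3D lie on the minus strand of 1 stretch of chromosome 7, 80742538 to 85250243 in GRCh38, which holds 29 RefSeq genes, 7 of them protein-coding. Besides these 4 only CACNA2D1, a calcium channel subunit, and PCLO, a presynaptic scaffold protein, were kept for testing there. PCLO was at 0.85 with the siRNA (edgeR adjusted p = 0.00177) and at -1.31 with endotrophin against the siRNA alone (edgeR adjusted p = 9.51e-05), and CACNA2D1 was called in no comparison. Limma on log2(FPKM + 0.1) called PCLO in neither (0.77, adjusted p = 0.117, and -1.19, adjusted p = 0.0761).

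SEMA5A, a transmembrane semaphorin with thrombospondin repeats whose receptor is plexin B3, was the member that rose most in SR siCtrl against SS siCtrl. It had 53.9 and 52.1 CPM in SR siCOL6A3 + rhETP, 60.5 and 57.5 CPM in SR siCOL6A3, 42.5 and 42.9 CPM in SR siCtrl and 11.0 and 9.81 CPM in SS siCtrl. Every resistant library stood above both sensitive ones. SR siCtrl was 2.04 (SE 0.14) above SS siCtrl (edgeR, Benjamini-Hochberg adjusted p = 3.93e-10), a call that held under all 13 alternatives. The rise with the siRNA was 0.47 (SE 0.13; edgeR adjusted p = 0.0116). It was not called without SR siCtrl replicate 1 (0.47, edgeR adjusted p = 0.0513) or without SR siCOL6A3 replicate 1 (0.44, edgeR adjusted p = 0.0906), nor by limma on FPKM. Antisense exons overlap 436 bases of SEMA5A, so its reads are uncertain there.

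Of the class 4 semaphorins, membrane ligands that act mainly on B-type plexins, SEMA4B alone was called. It had 18.5 and 18.1 CPM in SR siCOL6A3 + rhETP, 16.0 and 19.9 CPM in SR siCOL6A3, 14.4 and 12.5 CPM in SR siCtrl and 25.3 and 27.7 CPM in SS siCtrl. Both sensitive libraries stood above every resistant one, and SR siCtrl lay at -0.98 (SE 0.19) relative to SS siCtrl (edgeR, Benjamini-Hochberg adjusted p = 0.000679). SEMA4C, the ligand of plexin B2, and SEMA4F stayed within 4.21 to 5.17 FPKM and within 2.94 to 3.66 FPKM over all 8 libraries, with log2 fold changes of -0.10 to 0.05 and -0.15 to 0.17. SEMA4D, the ligand of plexin B1, lay at 0.65 to 1.31 FPKM and SEMA4G at 0.87 to 1.81 FPKM, without a call; 1441 exonic bases of SEMA4G overlap genes on the opposite strand, MRPL43 among them, so its reads are uncertain. Among class 6 semaphorins, which bind A-type plexins, SEMA6B was the abundant one at 11.5 to 17.3 FPKM, with its lowest and its highest value both in SS siCtrl. SEMA6C lay at 0.51 to 1.17 FPKM, SEMA6A and SEMA6D reached at most 0.39 and 0.11 FPKM, and none of the 4 was called.

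**Figure D3:**
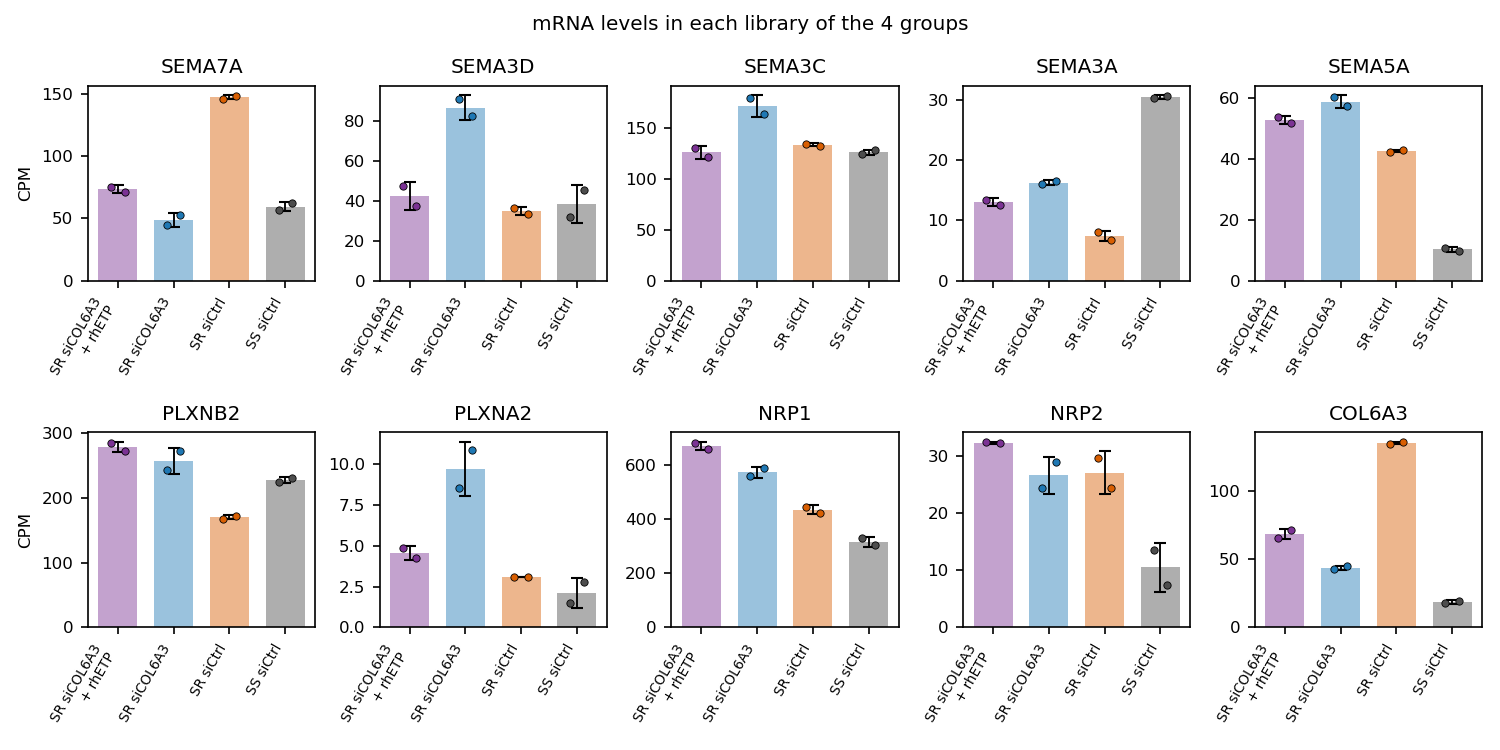
CPM of 9 members and of COL6A3 in the 4 groups; bars are means of 2 libraries, error bars the SD, and points the libraries. SEMA7A is highest in SR siCtrl, SEMA3D, SEMA3C and PLXNA2 are highest in SR siCOL6A3, SEMA3A is highest in SS siCtrl, and NRP1 is lowest in SS siCtrl.

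Plexins fell in SR siCtrl against SS siCtrl where they were called and rose with the siRNA where they were called. PLXNB2, a receptor for class 4 semaphorins and for angiogenin, was the most abundant plexin. It had 284.8 and 273.6 CPM in SR siCOL6A3 + rhETP, 243.6 and 272.1 CPM in SR siCOL6A3, 168.1 and 172.6 CPM in SR siCtrl and 225.1 and 231.5 CPM in SS siCtrl. The SR siCtrl libraries stood below all others. SR siCtrl lay at -0.42 (SE 0.08) relative to SS siCtrl (edgeR, Benjamini-Hochberg adjusted p = 0.000858). The siRNA libraries were 0.60 (SE 0.08) above SR siCtrl (edgeR adjusted p = 1.42e-05) and those with endotrophin 0.71 (SE 0.08) above it (edgeR adjusted p = 1.57e-06). The difference of 0.11 (SE 0.08) between SR siCOL6A3 + rhETP and SR siCOL6A3 was not called.

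PLXNB1, the receptor for SEMA4D, was scarce and nearly absent from the resistant controls. It had 97 and 48 counts in SR siCOL6A3 + rhETP, 150 and 123 in SR siCOL6A3, 0 and 12 in SR siCtrl and 56 and 113 in SS siCtrl, and both SR siCtrl libraries stood below all others. The fitted log2 fold changes were -3.74 (SE 0.93) for SR siCtrl against SS siCtrl, 4.39 (SE 0.94) for SR siCOL6A3 against SR siCtrl and 3.21 (SE 0.92) for SR siCOL6A3 + rhETP against SR siCtrl, with edgeR Benjamini-Hochberg adjusted p-values of 0.00678, 0.00148 and 0.0157. The sizes moved when a library was left out: without SR siCtrl replicate 1 they were -2.75, 3.42 and 2.24, and PLXNB1 was not called in the last of these (edgeR adjusted p = 0.0709). The first call was also lost in a fit of the 2 groups alone (edgeR adjusted p = 0.0826) and by limma on log2(FPKM + 1) (adjusted p = 0.104), and the last in a fit of its 2 groups alone (edgeR adjusted p = 0.0653). Without SS siCtrl replicate 2 the first fold change was -2.98, and without SR siCtrl replicate 2 the remaining control library was at 0, so no fold is given.

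PLXNB3, the receptor for SEMA5A, had 8.17 and 11.3 CPM in SR siCOL6A3 + rhETP, 10.3 and 7.29 CPM in SR siCOL6A3, 7.38 and 6.16 CPM in SR siCtrl and 14.8 and 9.81 CPM in SS siCtrl. SR siCtrl lay at -0.86 (SE 0.28) relative to SS siCtrl, close to the threshold (edgeR, Benjamini-Hochberg adjusted p = 0.0406). The call was lost without SS siCtrl replicate 1 (-0.53, edgeR adjusted p = 0.305), without SR siCtrl replicate 1 (-0.99, 0.0694) and without SR siCtrl replicate 2 (-0.73, 0.167), by DESeq2 (adjusted p = 0.0533), in a fit of the 2 groups alone (edgeR adjusted p = 0.0745) and by limma on FPKM. PLXNB3 shares 1432 exonic bases with SRPK3 on the same strand, so reads of the 2 genes may be mixed.

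PLXNA3, a neuropilin partner, had 15.5 and 12.8 CPM in SR siCOL6A3 + rhETP, 17.1 and 14.4 CPM in SR siCOL6A3, 10.1 and 8.53 CPM in SR siCtrl and 18.5 and 21.0 CPM in SS siCtrl. The SR siCtrl libraries were the lowest of the 8. SR siCtrl lay at -1.08 (SE 0.21) relative to SS siCtrl (edgeR, Benjamini-Hochberg adjusted p = 0.000852), the siRNA libraries were 0.76 (SE 0.21) above SR siCtrl (edgeR adjusted p = 0.0114), and those with endotrophin 0.61 (SE 0.21) above it (edgeR adjusted p = 0.0478). The rise with the siRNA was not called without SR siCtrl replicate 2 (0.66, edgeR adjusted p = 0.0768) or SR siCOL6A3 replicate 1 (0.64, 0.118). The rise with endotrophin against SR siCtrl was lost when any 1 of the 4 libraries compared was left out, at 0.46 to 0.74 with edgeR adjusted p-values of 0.0586 to 0.325.

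PLXNA2, another A-type plexin, had 4.85 and 4.25 CPM in SR siCOL6A3 + rhETP, 8.57 and 10.9 CPM in SR siCOL6A3, 3.08 and 3.06 CPM in SR siCtrl and 1.48 and 2.75 CPM in SS siCtrl. The siRNA libraries stood above all others, at 1.66 (SE 0.39) relative to SR siCtrl (edgeR, Benjamini-Hochberg adjusted p = 0.00317). The difference of -1.10 (SE 0.38) with endotrophin against the siRNA alone was not called (edgeR adjusted p = 0.0841) except in a fit of those 2 groups alone. PLXND1, the receptor of SEMA3E that is known from endothelial cells, had 12.1 and 9.21 CPM in SR siCOL6A3 + rhETP, 9.07 and 12.3 CPM in SR siCOL6A3, 7.32 and 4.58 CPM in SR siCtrl and 4.08 and 4.96 CPM in SS siCtrl. Its rise of 0.84 (SE 0.30) with the siRNA had an edgeR adjusted p of 0.0465, and was lost without SR siCtrl replicate 2 (0.56, edgeR adjusted p = 0.291) and without SR siCOL6A3 replicate 2 (0.63, 0.311). It held in 6 of the 13 alternative settings, and was also lost by DESeq2 (adjusted p = 0.0617), with a stricter filter (edgeR adjusted p = 0.0534), in a fit of the 2 groups alone (edgeR adjusted p = 0.0557) and by limma on FPKM (adjusted p = 0.109 and 0.153). Relative to SR siCtrl the libraries with endotrophin were also 0.84 (SE 0.30) higher, just outside the threshold (edgeR adjusted p = 0.0522). They were called without SR siCtrl replicate 1 (1.22, edgeR adjusted p = 0.0193) and without SR siCOL6A3 + rhETP replicate 2 (1.03, edgeR adjusted p = 0.0493).

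PLXNA1, a neuropilin partner and the second most abundant plexin, lay at 10.1 to 15.2 FPKM and was called in no comparison, with log2 fold changes of -0.05 to 0.29. SR siCtrl was called above SS siCtrl without SR siCtrl replicate 1 (0.43, edgeR adjusted p = 0.032) or SS siCtrl replicate 2 (0.40, edgeR adjusted p = 0.0363). PLXNC1, the plexin receptor of SEMA7A, was scarce, at 0.05 to 0.28 FPKM with 13 to 80 counts, and was not called. The integrin subunits ITGB1 and ITGA1, which form another SEMA7A receptor, were both expressed. ITGB1 had 1406 and 1413 CPM in SR siCOL6A3 + rhETP, 1304 and 1279 CPM in SR siCOL6A3, 1119 and 1109 CPM in SR siCtrl and 1101 and 1068 CPM in SS siCtrl. It rose with the siRNA by 0.21 (SE 0.05; edgeR, Benjamini-Hochberg adjusted p = 0.00531), and ITGA1 rose by 0.64 (SE 0.14; edgeR adjusted p = 0.00208).

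Both neuropilins were more abundant in resistant than in sensitive cells. NRP1, co-receptor for class 3 semaphorins and VEGFA, had 679.5 and 656.8 CPM in SR siCOL6A3 + rhETP, 558.0 and 586.8 CPM in SR siCOL6A3, 445.5 and 423.2 CPM in SR siCtrl and 327.8 and 301.8 CPM in SS siCtrl. No 2 groups overlapped, and the order was the same in every library: the siRNA with endotrophin highest, then the siRNA alone, then the resistant controls, then the sensitive controls. SR siCtrl was 0.46 (SE 0.07) above SS siCtrl (edgeR, Benjamini-Hochberg adjusted p = 4.81e-05), SR siCOL6A3 0.40 (SE 0.07) above SR siCtrl (edgeR adjusted p = 0.000213) and SR siCOL6A3 + rhETP 0.62 (SE 0.07) above SR siCtrl (edgeR adjusted p = 1.05e-06). These 3 calls held under all 13 alternatives. The difference of 0.22 (SE 0.07) between SR siCOL6A3 + rhETP and SR siCOL6A3 missed the threshold (edgeR adjusted p = 0.0523) and passed it in DESeq2 (adjusted p = 0.00914). Antisense exons overlap 561 bases of NRP1, and whether the libraries kept strand is not stated in the sources used here.

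NRP2, which also binds SEMA3F and VEGFC, had 32.5 and 32.3 CPM in SR siCOL6A3 + rhETP, 24.41 and 29.03 CPM in SR siCOL6A3, 29.8 and 24.4 CPM in SR siCtrl and 13.6 and 7.51 CPM in SS siCtrl. All 6 resistant libraries stood above both sensitive ones, and SR siCtrl and SR siCOL6A3 overlapped. SR siCtrl was 1.36 (SE 0.21) above SS siCtrl (edgeR, Benjamini-Hochberg adjusted p = 8.58e-05), and the other 3 comparisons, at -0.02 to 0.28, gave no call. By FPKM, NRP1 exceeded NRP2 by 36.3 and 35.3 times in SR siCOL6A3 + rhETP, 39.7 and 35.1 times in SR siCOL6A3, 26.0 and 30.1 times in SR siCtrl and 41.9 and 69.8 times in SS siCtrl.

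Within each family 1 or a few genes made up most of the mRNA per length. SEMA7A made up 23.8% and 24.1% of the summed semaphorin FPKM in SR siCOL6A3 + rhETP, 13.4% and 15.7% in SR siCOL6A3, 38.4% and 39.4% in SR siCtrl and 20.6% and 19.4% in SS siCtrl. The summed semaphorin FPKM itself differed less, at 90.1 and 83.4 in SR siCOL6A3 + rhETP, 98.3 and 98.0 in SR siCOL6A3, 110.3 and 108 in SR siCtrl and 77.9 and 89.5 in SS siCtrl. The summed plexin FPKM was 55.4 and 52.3 in SR siCOL6A3 + rhETP, 50.7 and 56.6 in SR siCOL6A3, 38.1 and 39.8 in SR siCtrl and 43.8 and 45.8 in SS siCtrl, lowest in both resistant controls. PLXNB2 held 56.1% to 66.8% of it in each library. These shares are descriptions without a test.

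**Figure D4:**
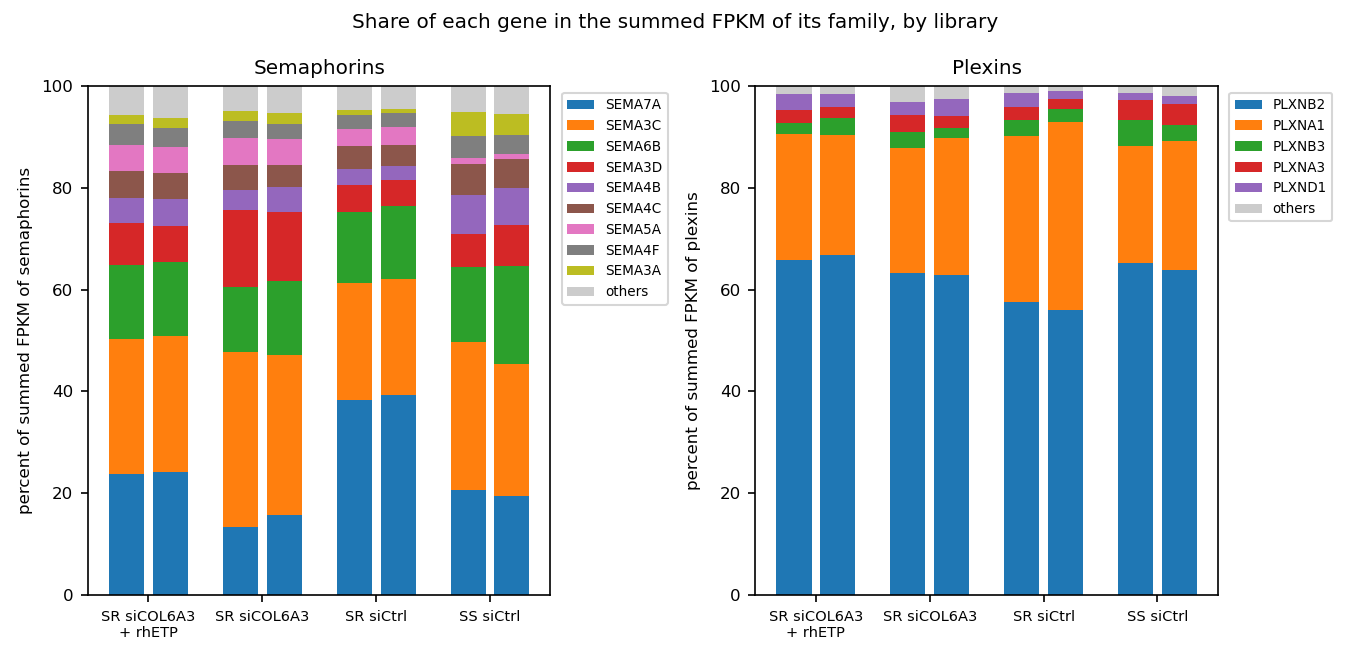
Percent of the summed FPKM of semaphorins (left) and plexins (right) held by each gene, 1 bar for each library. The SEMA7A part is largest in SR siCtrl, at 38.4% and 39.4%, and smallest in SR siCOL6A3, at 13.4% and 15.7%.

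Other genes of the pathway were taken from a list of 65 genes (VEGF-family partners, integrins, small GTPases, collapsin response mediators, MICAL enzymes and processing proteases), of which 59 were tested. In SR siCtrl against SS siCtrl 3 rose and 14 fell, 28.8% of those tested, beside 15.8% called over all genes (6.52% higher and 9.30% lower). The median was -0.06, or -0.05 with genes at 0 in a group set to their bound, beside 0.01 for all genes. The largest falls were in collapsin response mediators, cytosolic proteins that relay SEMA3A signals to microtubules. DPYSL3 had 2 and 0 counts in SR siCtrl against 857 and 923 in SS siCtrl, 826-fold lower in SR siCtrl after scaling (95% exact interval of counting error 228 to 6830, which takes counts as independent and would be wider if each read of a pair was counted). Both counts were in SR siCtrl replicate 1, without which the group is at 0; without SR siCtrl replicate 2 the fitted log2 fold change was -8.60, against -9.55 with all libraries. DPYSL5 had 0 counts in both SR siCtrl libraries against 136 and 76 in SS siCtrl, at least 32.2-fold lower in SR siCtrl against a floor of 3 counts per library. DPYSL2 was also lower, at -1.07 (SE 0.09; edgeR, Benjamini-Hochberg adjusted p = 1.2e-08). CRMP1, a collapsin response mediator, at 0.69, MICALL1 at 0.61 and the membrane protease MMP14 at 0.58 were higher; CRMP1 was at 0.55 and not called without SR siCtrl replicate 1.

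With the siRNA against SR siCtrl 12 of the 59 rose and 3 fell, 25.4% of those tested and near the 22.3% called over all genes (11.4% higher and 10.9% lower), with a median of 0.14 beside 0.00 for all genes. The largest rises were VEGFC at 0.99 (SE 0.18), the kinase PAK1 at 0.91 (SE 0.16), MICAL2, an actin-oxidising enzyme, at 0.86 (SE 0.10) and L1CAM, an adhesion molecule that associates with NRP1, at 0.76 (SE 0.07). The falls were VEGFA at -0.69 (SE 0.24), the protease FURIN, which cleaves class 3 semaphorin precursors, at -0.67 (SE 0.15), and ABL1 at -0.55 (SE 0.12). VEGFA was not called without SR siCtrl replicate 1 (-0.46) or SR siCOL6A3 replicate 2 (-0.53), nor was ABL1 without SR siCOL6A3 replicate 1 (-0.35). The call of VEGFA was also lost by DESeq2 (-0.68, adjusted p = 0.0569) and by limma on FPKM (adjusted p = 0.17 and 0.168).

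With endotrophin against the siRNA alone 5 of the 59 rose and 2 fell, 11.9% beside 7.77% of all genes (4.41% higher and 3.36% lower), with a median of 0.01. MICALL1 at 0.54, FARP1 at 0.35, MMP14 at 0.30, MRAS at -0.65 and PAK1 at -0.62 were 5 of these 7, and each lost its call in some fit with 1 library left out; the other two are not described here, and nothing said of these 5 extends to them. MICALL1 was not called without SR siCOL6A3 + rhETP replicate 1 (0.44), nor MMP14 without that library (0.25) or SR siCOL6A3 replicate 1 (0.20). FARP1 (0.25 to 0.36) and PAK1 (-0.63 to -0.51) were not called without SR siCOL6A3 replicate 1 or either library with endotrophin, and MRAS (-0.83 to -0.48) without any 1 of the 4. Against SR siCtrl, 17 rose and 3 fell in SR siCOL6A3 + rhETP, 33.9% beside 19.0% of all genes (10.1% higher and 8.93% lower), with a median of 0.22. The largest rises were VEGFC at 1.09 (SE 0.18), MICAL2 at 1.03 (SE 0.10), the cofilin kinase LIMK1 at 0.89 (SE 0.19) and the receptor PTK7 at 0.83 (SE 0.14). The falls were VEGFB and FURIN, each at -0.65 (SE 0.15), and RRAS2, at -0.36 (SE 0.10), which lost the call when any 1 of the 4 libraries was left out (-0.36 in each case).

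VEGF ligands and receptors completed the neuropilin partners. VEGFC had 45.5 and 34.9 CPM in SR siCOL6A3 + rhETP, 38.9 and 35.9 CPM in SR siCOL6A3, 19.7 and 18.1 CPM in SR siCtrl and 15.6 and 21.0 CPM in SS siCtrl. The libraries with the COL6A3 siRNA, with or without endotrophin, stood above all control libraries, while SR siCtrl and SS siCtrl overlapped. VEGFA had 20.5 and 11.1 CPM in SR siCOL6A3 + rhETP, 15.0 and 12.3 CPM in SR siCOL6A3, 25.0 and 18.9 CPM in SR siCtrl and 21.4 and 20.6 CPM in SS siCtrl. VEGFB had 31.4 and 34.7 CPM in SR siCOL6A3 + rhETP, 47.5 and 45.4 CPM in SR siCOL6A3, 48.5 and 55.1 CPM in SR siCtrl and 33.9 and 48.0 CPM in SS siCtrl, and its difference of -0.49 with endotrophin against the siRNA alone missed the threshold (edgeR, Benjamini-Hochberg adjusted p = 0.0508). The VEGF receptors were barely detected: KDR had 10 counts in 1 library and 0 in the others, FLT1 had 14 counts in each SS siCtrl library and 0 elsewhere, and FLT4 had at most 40 counts. VEGFD was at 0 in all 8 libraries and PGF had at most 48 counts.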

How the data were processed

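Counts per gene of 8 SK-Hep1 libraries were deposited by the authors without normalization, and a second table deposited by the authors gives FPKM; in each of 10579 genes checked, the length implied by count, FPKM and library total was the same in all libraries within a relative range of 1.35e-15, though it was not compared with an annotated length. The submitters' processing notes name build GRCh38; aligner, counter, annotation and strandedness are not stated in the sources used here. Among counts of 1 to 20, 72.8% to 77.6% were even, a pattern that counting each read of a pair would give, so halved counts were tried; 3 counts would then be fewer fragments. An unnamed entry with 0 counts was left out.

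Genes were kept by filterByExpr (15684), libraries scaled by TMM, and edgeR 4.0.16 (R 4.3.3) fitted 1 coefficient per group to all 8 libraries by quasi-likelihood, with 4 residual and 17.4 prior degrees of freedom. Tests were 2-sided, with Benjamini-Hochberg adjustment within a comparison at 0.05. CPM are counts over TMM-scaled totals. Each mean has n = 2. The fit was tested on counts simulated from its own model, with changes set only in well-counted genes. That test therefore does not cover scarce members. Alternatives were RLE size factors, DESeq2 1.42.0, other filters, halved counts, limma 3.58.1 on log2(FPKM + 1) and log2(FPKM + 0.1), a replicate block, fits of the 2 groups alone, and leaving out each library. The members and lists were chosen with earlier results of these data known. Values in each library are given for members called in at least 1 comparison; of the pathway list, VEGF-family genes and, for each comparison, up to 4 rises and 4 falls among called genes were named, and ITGA1, ITGB1 and PCLO were added after their values were seen. Some genes that this rule picks are not reported here. Positions and exon overlaps come from RefSeq and GENCODE 29 on GRCh38, and promoters from RefSeq.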

Additional observations from a re-analysis of the deposited data

How the results depend on the processing

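The 10, 11, 3 and 6 members called in SR siCtrl against SS siCtrl, SR siCOL6A3 against SR siCtrl, SR siCOL6A3 + rhETP against SR siCOL6A3 and SR siCOL6A3 + rhETP against SR siCtrl became 9 to 11, 8 to 10, 2 to 3 and 5 to 6 when 1 library was left out. Limma on FPKM, with either pseudocount, called 3 in the last comparison, losing PLXNB1, PLXNA3 and SEMA3A, and a fit of the 2 groups alone called 5 in the third, adding PLXNA2 and SEMA3E; the causes were not tested. Limma on FPKM also gave 8 in the first comparison (losing PLXNB3 with PLXNB1 or PLXNA3) and 8 in the second (losing PLXNA3, SEMA5A and PLXND1), and the fit of 2 groups gave 8 in the first (losing PLXNB3 and PLXNB1), 10 in the second (losing PLXND1) and 5 in the last (losing PLXNB1 and PLXNA3, adding PLXND1). Over all genes, limma on FPKM called 494 or 490 in the third comparison, against 1218, and leaving out 1 library gave 651 to 934; in SR siCOL6A3 + rhETP against SR siCtrl leaving out SR siCOL6A3 + rhETP replicate 2 gave 1972, against 2981. With the replicate number as a replicate block the members called were 10, 11, 4 and 7, adding NRP1 and PLXND1; deviations of same-numbered libraries correlated at -0.0457 to 0.0597, so the numbers are not shown to pair the libraries. No member or other named gene that was called changed direction under any of these alternatives. For the members called, 245 of the values under other settings stayed past the threshold and 25 did not; with 1 library left out these were 104 and 16. Scaling by RLE size factors kept every member call. The common biological coefficient of variation was 0.220 with 2 libraries per group. Changes of scarce members such as PLXNC1, SEMA3F and SEMA6D could have been missed at this depth, and no detection limit was computed for them.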

Other observations

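Other guidance families were also expressed in these cells; the genes named were chosen after their values were seen. Of 42 ephrin, Eph, SLIT, ROBO, netrin and netrin-receptor genes, 28 were tested: 4 rose and 6 fell in SR siCtrl against SS siCtrl, 3 rose and 3 fell in SR siCOL6A3 against SR siCtrl, 2 rose in SR siCOL6A3 + rhETP against SR siCOL6A3, and 6 rose and 2 fell in SR siCOL6A3 + rhETP against SR siCtrl. These are 35.7%, 21.4%, 7.14% and 28.6% of the genes tested, beside 15.8%, 22.3%, 7.77% and 19.0% of all genes, so the shares in the comparisons of SR siCOL6A3 with SR siCtrl and of SR siCOL6A3 + rhETP with SR siCOL6A3 are near the background. The median log2 fold changes of these families were -0.24, 0.54, 0.03 and 0.205, beside -0.02, 0.39, 0.02 and 0.30 for the members. Some of these genes were at 0 in a group, such as UNC5C in SR siCtrl. EPHA4, a receptor tyrosine kinase for ephrins, averaged 21.9 CPM in SR siCOL6A3 + rhETP, 27.1 CPM in SR siCOL6A3, 7.52 CPM in SR siCtrl and 27.5 CPM in SS siCtrl. It was at -1.87 (SE 0.19) in SR siCtrl against SS siCtrl and at 1.85 (SE 0.19) with the siRNA. EPHB1 averaged 16.1 CPM in SR siCOL6A3 + rhETP, 8.92 CPM in SR siCOL6A3, 22.9 CPM in SR siCtrl and 10.4 CPM in SS siCtrl. It was at 1.14 (SE 0.21) in SR siCtrl against SS siCtrl, at -1.36 (SE 0.21) with the siRNA and at 0.86 (SE 0.21) with endotrophin against the siRNA alone, the last without a call when SR siCOL6A3 replicate 2 (0.69) or SR siCOL6A3 + rhETP replicate 1 (0.81) was left out.

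In SR siCtrl against SS siCtrl the netrin receptor NEO1, at -2.90 (SE 0.32), the basement-membrane netrin NTN4, at -1.64 (SE 0.18), and the ephrin ligand EFNB2, at -1.05 (SE 0.14), were lower, and the endothelial roundabout receptor ROBO4, at 1.32 (SE 0.15), was higher (edgeR quasi-likelihood, Benjamini-Hochberg adjusted p = 8.08e-07, 9.71e-07, 9.46e-06 and 1.17e-06).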
